A study of Homo sapiens with 12 samples.

Results

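Expression of 10 syntaxin genes was examined around STX12, a gene that the study took up as a target of miR-371-3p, to ask whether its lower level in cells that express pre-miR-371 and its rise on erlotinib treatment were shared by the rest of the family. The members were STX3, STX4, STX5, STX6, STX7, STX8, STX10, STX12, STX16 and STX18, taken by name and not by any measured value, and all 10 were present among the 19775 genes measured. The study reached STX12 through reporter and siRNA assays of predicted targets, and it also read its targets on arrays of these lines, so the difference of STX12 between the lines was known when the gene was taken up here and is not independent evidence. The cells were PC9, an established human line from a lung adenocarcinoma whose growth depends on mutant EGFR. A first stable line carried a lentiviral GFP vector, for which the methods list a scramble control hairpin, and a second carried a lentiviral construct for pre-miR-371. Both were kept for 24 h in DMSO, the solvent, or in 2 μM erlotinib, which inhibits the kinase of EGFR, and this gave 4 groups of 3 arrays and 12 arrays in all. There was a single stable line of each kind, so the effect of pre-miR-371 and a difference between the particular lines cannot be told apart. The labels do not say whether the 3 arrays of a group came from separate cultures. The paper's statistics section calls all its replicates biological, from independent experiments, without naming the arrays. The p-values measure only the spread between these arrays.

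Syntaxins are membrane-anchored SNARE proteins. A syntaxin on the target membrane joins with partner SNAREs, among them SNAP proteins and VAMP proteins of the vesicle, into a bundle of helices that pulls the membranes together until they fuse. Each step of membrane traffic uses its own members. STX12, STX7 and STX8 act in endosomes, STX16, STX6 and STX10 between endosomes and the trans-Golgi network, STX5 and STX18 between the endoplasmic reticulum and the Golgi, and STX3 and STX4 at the plasma membrane. Growth factor receptors such as EGFR pass through these endosomes after they are taken up, and are either recycled or sent to lysosomes. MicroRNAs lower messenger RNAs that pair with their seed, the bases near the 5′ end.

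The hairpin that the second line expressed gives a pair of mature miRNAs, shown because their seeds set which transcripts they can pair with. Both are read from RefSeq in the GRCh38.p14 assembly on the plus strand of chromosome 19, at chr19:53787716-53787738 for the 3p arm and at chr19:53787680-53787699 for the 5p arm. Bases 2 to 8, the seed, are in capitals.
hsa-miR-371a-3p: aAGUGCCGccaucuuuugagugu
hsa-miR-371a-5p: aCUCAAACugugggggcacu
Of 2545 human mature miRNA entries, 1 carried the 3p seed, which was miR-371a-3p itself, and 1 carried the 5p seed. Bases 2 to 7, the core of the seed, were shared by 5 miRNA names for each arm, its own included. Neither miRNA was measured on these arrays, and a target site in STX12 was not examined.

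The authors' values are log2 intensities per probe set, a group of short probes on the array for a given transcript. The 10 genes had 25 probe sets, and each gene was represented by its brightest probe set, that with the highest mean. Differences were tested with limma across all genes, with Benjamini-Hochberg adjustment over 19775 genes, and a gene was called at an adjusted p under 0.05. All values below are log2, and a difference of 1 is a doubling or a halving. Epithelial markers of the line were high, with EPCAM from 12.4 to 13 and KRT18 from 13.5 to 13.7 over the 12 arrays, whereas the leukocyte marker PTPRC was at 2.57 to 3.03. NKX2-1, a lung lineage factor, was low at 4.20 to 4.75. The endothelial marker PECAM1 read 7.84 to 9.20 and the fibroblast marker COL1A1 6.61 to 7.15, but CDH5 did not pass 5.57 and COL3A1 did not pass 3.59. The upper quartile of an array was 6.77 to 6.92 in GFP vector cells in DMSO and 6.72 to 6.74 in pre-miR-371 cells in DMSO, so well expressed genes as a class read slightly lower in the second. GFP vector replicate 1 in DMSO had the highest upper quartile.

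The family split on erlotinib treatment. STX12, STX7, STX8, STX5 and STX16 rose in both lines, and STX3, STX6, STX18 and STX10 fell in both. STX4 changed least, and its fall was called in pre-miR-371 cells alone. Changes of the 10 genes in GFP vector cells ran from -1.0 for STX3 to 0.97 for STX7. In that line 5 of 10 members were called higher and 4 lower, against 26.5% and 23.4% of all genes, and in pre-miR-371 cells 5 were called higher and 5 lower, against 24.8% and 22.2%. Erlotinib changed a large part of all genes in these cells, and more of the well expressed ones. Among the 5955 genes with a mean value from 7 to 10, where all members but STX5 lay, 38.3% were higher and 42% lower in GFP vector cells. The members' median change was 0.16 with the GFP vector and 0.08 with pre-miR-371, beside 0.003 and -0.03 over all genes. The rise of STX12 was therefore shared by 4 of the other 9 syntaxins. The arrays measure RNA over all cells of a culture, so fewer expressing cells and less RNA per cell cannot be told apart.

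**Figure D1:**
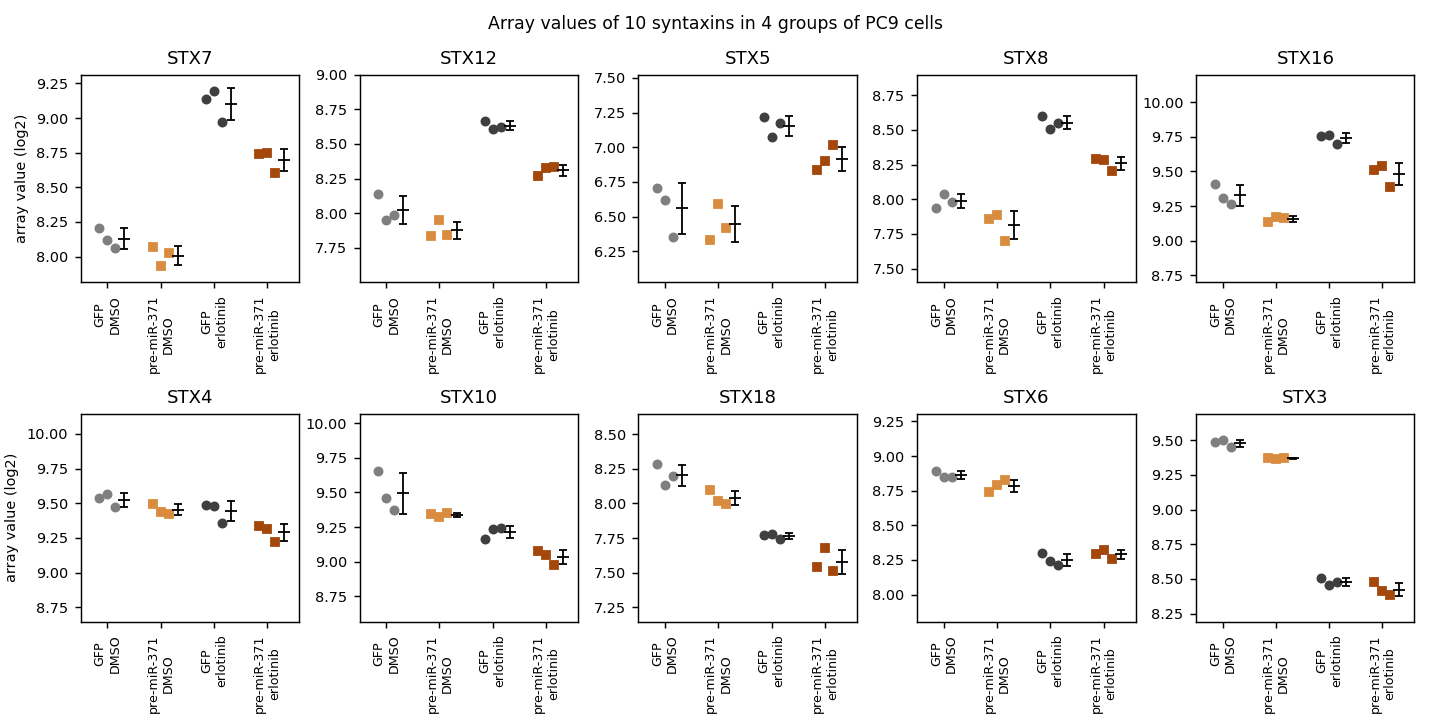
Array values (log2) of the 10 syntaxins, ordered by their erlotinib response in GFP vector cells. Points are single arrays (3 per group), the black bar is the group mean with SD, and every panel spans the same log2 distance. Erlotinib arrays lie above the DMSO arrays of the same line for STX7, STX12, STX5, STX8 and STX16 and below them for STX10, STX18, STX6 and STX3.

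STX12 encodes the endosomal syntaxin that works in recycling of receptors to the cell surface. Its gene lies at chr1:27773219-27824443 in GRCh38.p14. In GFP vector cells it read 8.14, 7.95 and 7.99 in DMSO and 8.67, 8.60 and 8.62 in erlotinib. The pre-miR-371 line gave 7.84, 7.95 and 7.84 in DMSO and 8.27, 8.33 and 8.33 in erlotinib. All erlotinib arrays of a line lay above all its DMSO arrays. The rise was 0.61 (SE 0.06), or 1.52-fold, in GFP vector cells (limma, adjusted p = 3.31e-06) and 0.43 (SE 0.06), or 1.35-fold, in pre-miR-371 cells (limma, adjusted p = 7.84e-05). It exceeded the change of 86.4% of all genes in GFP vector cells and of 83.3% in pre-miR-371 cells. The second probe set of the gene, 212111_at, rose by 0.80 and 0.67.

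STX7 and STX8 take part in fusion of late endosomes with each other and with lysosomes. STX7 rose most of the members, from 8.21, 8.12 and 8.06 in DMSO to 9.14, 9.20 and 8.97 in erlotinib in GFP vector cells. Its pre-miR-371 arrays went from 8.07, 7.93 and 8.03 to 8.74, 8.75 and 8.60. The changes were 0.97 (SE 0.07; limma, adjusted p = 2.31e-07) and 0.69 (SE 0.07; limma, adjusted p = 6.45e-06), nearly a doubling in the first line. STX8 stood at 7.94, 8.04 and 7.98 in GFP vector cells in DMSO and at 8.60, 8.51 and 8.55 with erlotinib. With pre-miR-371 it was 7.86, 7.88 and 7.70, then 8.29, 8.28 and 8.20. No array of STX8 in erlotinib overlapped the DMSO arrays of its line, and the rises were 0.57 (limma, adjusted p = 7.3e-06) and 0.45 (limma, adjusted p = 6.95e-05).

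STX5, the syntaxin of transport from the endoplasmic reticulum to the Golgi and within it, had the widest spread between replicates of the 10. GFP vector arrays read 6.70, 6.62 and 6.35 in DMSO and 7.22, 7.08 and 7.17 in erlotinib. The pre-miR-371 arrays read 6.33, 6.59 and 6.42, and then 6.84, 6.90 and 7.01. The rises of 0.60 (SE 0.10; limma, adjusted p = 0.000187) and 0.47 (SE 0.10; limma, adjusted p = 0.00138) were larger than that spread. STX16, which receives endosomal vesicles at the trans-Golgi network, rose by less, 0.41 (limma, adjusted p = 7.64e-05) and 0.32 (limma, adjusted p = 0.000637), and with the mean of its probe sets the first was not called (limma, adjusted p = 0.0527). Its arrays went from 9.41, 9.31 and 9.26 to 9.76, 9.76 and 9.70 in GFP vector cells and from 9.13, 9.17 and 9.16 to 9.51, 9.54 and 9.39 in the other.

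STX3, a plasma membrane syntaxin of apical secretion in epithelia, fell the most. It read 9.48, 9.50 and 9.45 in GFP vector cells in DMSO and 8.51, 8.45 and 8.48 in erlotinib. In pre-miR-371 cells the values were 9.37, 9.36 and 9.37, and 8.47, 8.41 and 8.38. This was a fall by 1.0 on the log2 scale, to 0.50 of the DMSO level, in the first line (limma, adjusted p = 4.63e-09) and by 0.95 in the second (limma, adjusted p = 1.04e-08). STX4, its relative at the basolateral membrane, read 9.54, 9.57 and 9.47 in GFP vector DMSO arrays and 9.49, 9.48 and 9.36 in GFP vector erlotinib arrays. In pre-miR-371 cells it read 9.50, 9.44 and 9.42 and then 9.34, 9.31 and 9.22. The change of STX4 was -0.08 in GFP vector cells, where arrays overlapped (limma, adjusted p = 0.283), and -0.16 in pre-miR-371 cells (limma, adjusted p = 0.0427). That call was lost when any of 7 of the 12 arrays was left out in turn (GFP vector replicate 2 in either treatment, all 3 pre-miR-371 DMSO arrays, and pre-miR-371 replicates 2 and 3 in erlotinib), with adjusted p up to 0.142.

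STX6 and STX10 are closely related syntaxins of the trans-Golgi network and endosomes. STX6 went from 8.89, 8.85 and 8.85 to 8.30, 8.24 and 8.22 in GFP vector cells and from 8.74, 8.79 and 8.82 to 8.29, 8.32 and 8.26 in pre-miR-371 cells. Its falls were by 0.61 and 0.49 (limma, adjusted p = 5.07e-07 and 4.4e-06). STX10 fell by 0.28 (limma, adjusted p = 0.00517) and 0.31 (limma, adjusted p = 0.003). Its GFP vector DMSO arrays, at 9.66, 9.46 and 9.37, spread the most of any group of that gene, and erlotinib brought them to 9.16, 9.24 and 9.24. The pre-miR-371 arrays of STX10 read 9.35, 9.32 and 9.35 and then 9.07, 9.05 and 8.98. STX18, the syntaxin of retrograde transport to the endoplasmic reticulum, went from 8.28, 8.13 and 8.20 to 7.78, 7.78 and 7.74 and from 8.10, 8.02 and 8.0 to 7.55, 7.68 and 7.51. This was a fall by 0.44 and 0.46 (limma, adjusted p = 6.49e-05 and 4.82e-05). For these 3 genes every erlotinib array lay below every DMSO array of its line, as was the case for 25.7% of all genes with the GFP vector and 27.8% with pre-miR-371.

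**Figure D2:**
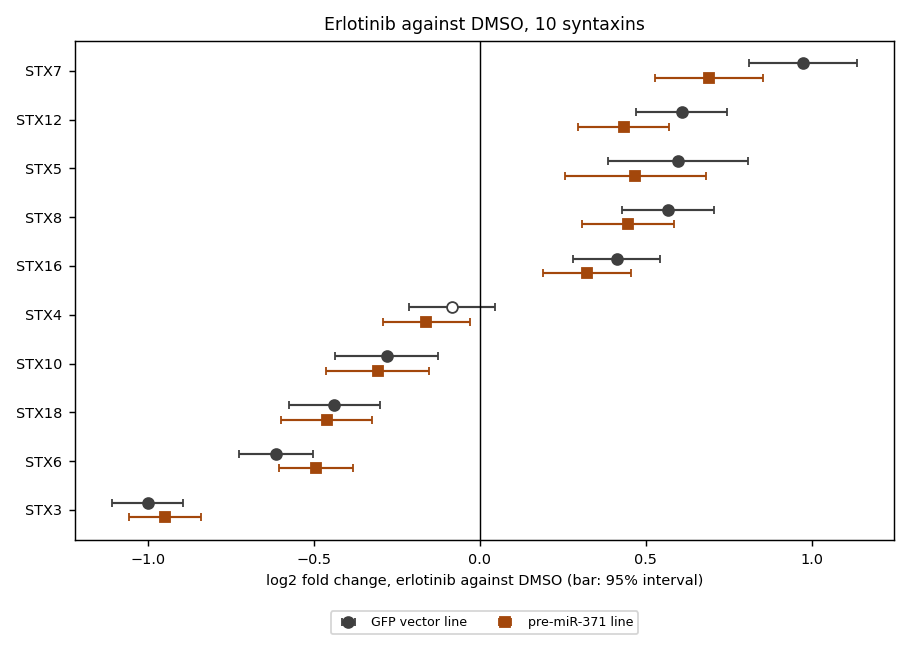
Log2 fold change of each syntaxin, erlotinib against DMSO, in GFP vector cells (circles) and pre-miR-371 cells (squares), with 95% intervals from limma. Filled symbols passed an adjusted p under 0.05. The order runs from 0.97 for STX7 to -1.0 for STX3, and the intervals of the lines overlap for every gene.

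To compare the other syntaxins with STX12 directly, the value of STX12 was subtracted on each array and the difference was tested by the same limma model over 19774 genes. The error of STX12 enters every one of these differences, so they are not independent of each other. In GFP vector cells 6 of the other 9 members changed less than STX12 or in the opposite direction, namely STX3, STX4, STX6, STX10, STX16 and STX18, and 1, STX7, rose more. Of all genes 79.7% lay below STX12 in this respect and 9.48% above. STX7 exceeded STX12 by 0.37 (SE 0.09; limma, adjusted p = 0.00211) in GFP vector cells and by 0.26 (limma, adjusted p = 0.0189) in pre-miR-371 cells. The second of these was not called without pre-miR-371 replicate 2 in DMSO or without replicate 1 or 2 in erlotinib, with adjusted p from 0.055 to 0.0869. With the mean of all probe sets the excess turned to -0.06 and -0.08. That mean brings in low probe sets of STX7, whose rises became 0.65 and 0.47. It also takes in the second probe set of STX12, whose rises became 0.71 and 0.55. The change of STX16 minus that of STX12 was -0.20 (limma, adjusted p = 0.0196) in GFP vector cells and -0.11 (limma, adjusted p = 0.163) in pre-miR-371 cells, where the difference did not pass. The rises of STX5 and STX8 did not differ from that of STX12 beyond error. Averaged over the lines the difference was 0.01 for STX5, with a 95% interval from -0.12 to 0.14, and -0.01 for STX8, with an interval from -0.14 to 0.11.

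Over the means of the 4 groups, each gene centred on its own mean, STX8 ranked 4 in likeness to STX12 among the 9650 genes with a mean value of at least 6. Likeness was measured as the root mean square difference of the 4 centred means. The genes closest to STX12 were TM9SF4, a membrane protein of endosomes and Golgi, at 0.002, PIGT, a subunit of the enzyme that attaches lipid anchors to proteins, at 0.007, and FARP1, an exchange factor of small GTPases, at 0.011. STX8 and MICAL1, an actin-oxidising enzyme, followed at 0.015 and 0.016. STX5 ranked 35, at 0.033, STX16 326 and STX7 1509. The standard error of a group difference was 0.06 for STX12 and STX8 and 0.10 for STX5. The order of genes as close as these is therefore not resolved. The 4 group means of STX8 were 7.99, 7.81, 8.55 and 8.26 in the order GFP vector DMSO, pre-miR-371 DMSO, GFP vector erlotinib and pre-miR-371 erlotinib. STX12 followed the same order of groups, with means of 8.02 ± 0.10, 7.88 ± 0.06, 8.63 ± 0.03 and 8.31 ± 0.04 (SD, n = 3 arrays each).

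For 9 of the 10 members the difference between the lines, in DMSO or in erlotinib, was smaller than the erlotinib change in either line. STX4 was the exception, at -0.15 between the lines in erlotinib and -0.08 for erlotinib in GFP vector cells. In DMSO all 10 syntaxins read lower on average in pre-miR-371 cells, with differences from -0.07 for STX4 to -0.17 for STX8, and none was called by limma, against 3.64% of all genes called lower and 1.62% called higher. At an unadjusted p under 0.05 there were 5 members by limma, against 13.8% of all genes lower at that p, and 4 by the methods' t-test, against 12.3%, which called 0 members after adjustment. With the mean of all probe sets STX3 was called, at -0.38 in place of -0.11 (limma, adjusted p = 0.019). For 6 members every pre-miR-371 array lay below every GFP vector array, as it did for 17.7% of all genes, and STX12 was not among them, since the lines overlapped at 7.95. STX12 was at -0.15 in DMSO (95% interval -0.28 to -0.01; limma, adjusted p = 0.184). Without GFP vector replicate 1 in DMSO that difference was -0.09, and after quantile normalization was repeated it was -0.06. Its adjusted p in DMSO ranged from 0.071 to 0.576 over the alternatives tried.

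Other genes of this level shifted the same way in DMSO, by less. The median difference in DMSO was -0.14 over the 10 syntaxins, -0.07 over the 5955 genes with a mean value from 7 to 10, and -0.001 over all genes. Genes of that level were called lower in 7.34% of cases. With quantile normalization repeated on the deposited values, the medians were -0.06 for the syntaxins and 0.009 for genes of that level.

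In erlotinib 4 of the 10 syntaxins were called lower in pre-miR-371 cells and none higher, against 9.46% of all genes lower and 6.5% higher, and 17.6% lower among genes with a mean from 7 to 10. They were STX7 at -0.41 (SE 0.07; limma, adjusted p = 0.00442), STX12 at -0.32 (SE 0.06; limma, adjusted p = 0.00564), STX8 at -0.29 (SE 0.06; limma, adjusted p = 0.00982) and STX16 at -0.26 (SE 0.06; limma, adjusted p = 0.0135). These were also 4 of the 5 members that erlotinib raised. STX5, the fifth, was at -0.24 (limma, adjusted p = 0.118). Among the members that erlotinib lowered, STX18 was at -0.19, STX10 at -0.18, STX4 at -0.15, STX3 at -0.06 and STX6 at 0.04, and none of these was called. Arrays of the lines did not overlap for any member except STX3 and STX6, so 8 members had all pre-miR-371 arrays below, compared with 21.2% of all genes. The call of STX16 was lost without pre-miR-371 replicate 3 in erlotinib (limma, adjusted p = 0.0555), whereas the call of STX12 held without any single array, at an adjusted p of at most 0.0239. STX18 and STX10 were called when GFP vector replicate 1 in DMSO was left out, and STX18 also without pre-miR-371 replicate 2 in erlotinib. With the mean of all probe sets STX8 and STX16 were not called (limma, adjusted p = 0.213 and 0.222), and by the methods' t-test with adjustment STX7 and STX16 were not. STX12 was alone among the 4 in keeping its call under every alternative except the methods' limit of a fold over 1.5, which no member passed. The median over the syntaxins was -0.21, beside -0.05 for genes with a mean from 7 to 10 and -0.01 for all genes.

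**Figure D3:**
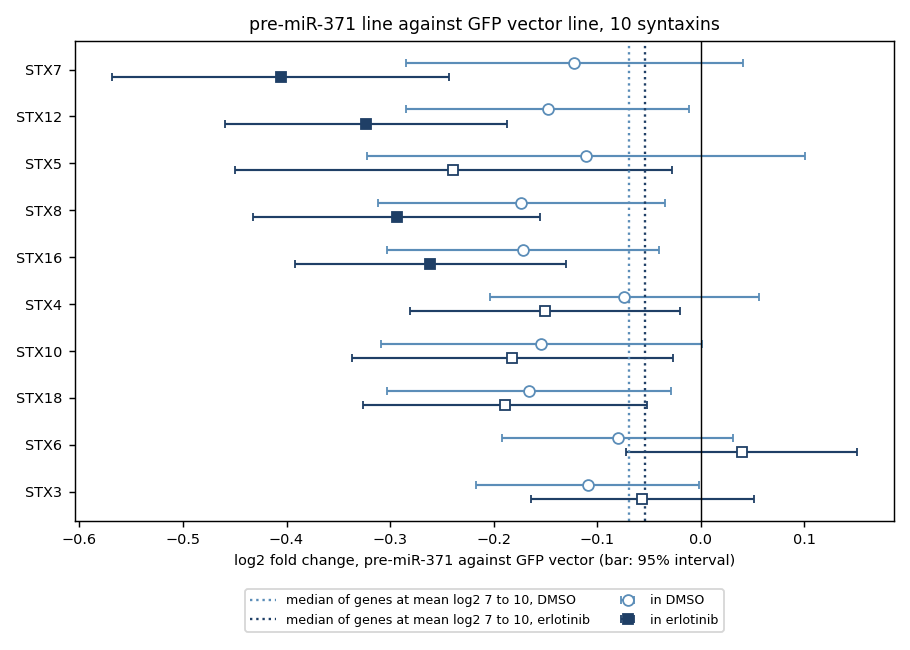
Log2 fold change of each syntaxin, pre-miR-371 line against GFP vector line, in DMSO (circles) and in erlotinib (squares), with 95% intervals from limma and filled symbols where the adjusted p was under 0.05. Dotted lines mark the median of the 5955 genes with a mean value from 7 to 10, at -0.07 in DMSO and -0.05 in erlotinib. STX7, STX12, STX8 and STX16 in erlotinib are the filled symbols.

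Averaged over both treatments, 6 members were called lower in pre-miR-371 cells, against 13.1% of all genes lower and 8.03% higher, and 25.3% lower among genes with a mean from 7 to 10. STX12 was at -0.24 (SE 0.04; limma, adjusted p = 0.00376), STX7 at -0.26, STX8 at -0.23, STX16 at -0.22, STX18 at -0.18 and STX10 at -0.17. STX10 was close to the threshold (limma, adjusted p = 0.0345) and was not called when any of 8 of the 12 arrays was left out in turn, which were GFP vector replicate 2 in DMSO, GFP vector replicates 2 and 3 in erlotinib, all 3 pre-miR-371 DMSO arrays, and pre-miR-371 replicates 2 and 3 in erlotinib. STX5 was called without GFP vector replicate 3 in DMSO (limma, adjusted p = 0.0203). The averaged calls of STX10 and STX18 were also lost after repeated quantile normalization, and those of STX8 and STX16 with the mean of all probe sets (limma, adjusted p = 0.436 and 0.0514). That mean gave STX3 a call at -0.31 in place of -0.08 (limma, adjusted p = 0.00307). An exact two-sided permutation test within treatments gave p = 0.01 for STX12 and 0.01 for STX7, where the smallest value it can give is 0.005. STX8, STX10, STX16 and STX18 reached that smallest value (exact permutation test, p = 0.005). STX3, not called by limma with its main probe set, equalled STX12 (exact permutation test, p = 0.01). STX4, STX5 and STX6 gave larger values (exact permutation test, p = 0.015, 0.045 and 0.48).

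In erlotinib the difference between the lines was larger for STX12 than for STX6, by 0.36 (limma, adjusted p = 0.00121), and than for STX3, by 0.27 (limma, adjusted p = 0.00983). These gaps rested in part on the main probe sets, and with the mean of all probe sets they were 0.20 for STX6 (limma, adjusted p = 0.0275) and 0.10 for STX3, which was not called (adjusted p = 0.24). For the other 7 members the difference between the lines was not called different from that of STX12. Relative to STX12, STX7 was at -0.08 (95% interval -0.28 to 0.11), STX8 at 0.03 (-0.15 to 0.21), STX16 at 0.06 (-0.09 to 0.22) and STX5 at 0.08 (-0.10 to 0.27). STX4 was at 0.17 (-0.01 to 0.35), STX10 at 0.14 (-0.02 to 0.31) and STX18 at 0.13 (-0.02 to 0.29). Their adjusted p-values by limma were 0.0827, 0.119 and 0.119, so a smaller difference of STX4, STX10 and STX18 remains undecided. Of all genes 61.2% were called above STX12 in this comparison and 0.662% below it. In DMSO none of the 9 was called different from STX12, with a smallest unadjusted p of 0.344 for STX6, where 8.03% of all genes were above.

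The erlotinib response of STX12 in pre-miR-371 cells minus that in GFP vector cells was -0.18 (95% interval -0.37 to 0.02; limma, adjusted p = 0.389). For STX7 it was -0.28 (95% interval -0.51 to -0.05; limma, adjusted p = 0.224), the single member at an unadjusted p under 0.05. No syntaxin was called in this comparison, against 1.44% of all genes higher and 0.561% lower.

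**Figure D4:**
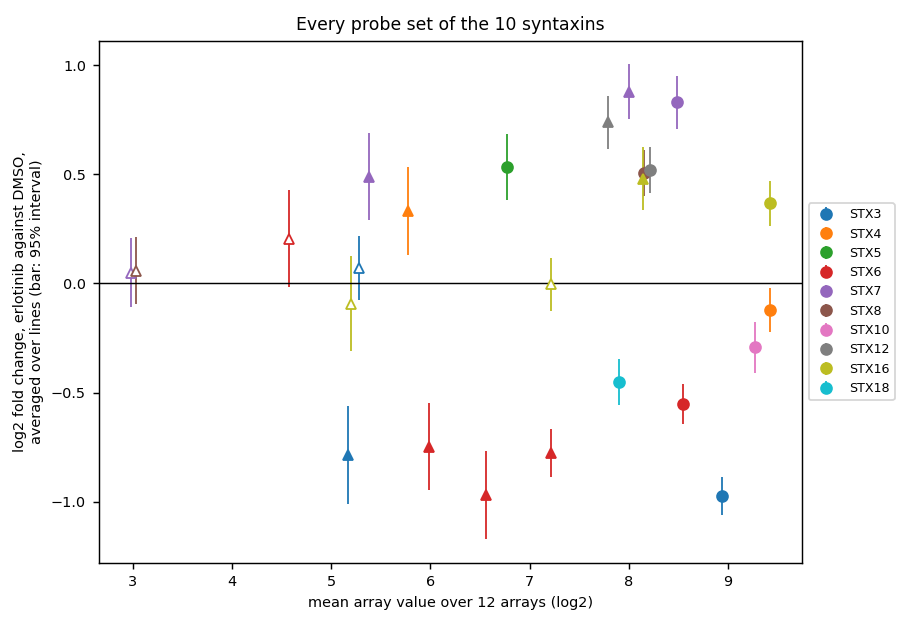
Every probe set of the 10 syntaxins, with the mean value over 12 arrays (log2) against the erlotinib change averaged over the lines (log2, bar 95% interval). Circles are the probe sets that stood for their gene, triangles the others, and filled symbols passed an adjusted p under 0.05 over all probe sets. Both probe sets of STX12 are filled, at 0.52 and 0.74, STX7 has filled ones at 0.83, 0.88 and 0.49, and STX16 has filled symbols near 0.4 and open ones near 0.

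Probe sets of a gene read the same RNA at different places and are not replicates. The second probe set of STX12, 212111_at, read 7.70, 7.40 and 7.49 with the GFP vector and 7.39, 7.25 and 7.29 with pre-miR-371 in DMSO. With erlotinib it read 8.38, 8.28 and 8.33, and 7.99, 8.02 and 7.94. Arrays of both kinds of cells stayed apart in either treatment, and the difference was called in erlotinib at -0.35 (limma over all probe sets, adjusted p = 0.0171) but not in DMSO at -0.22 (adjusted p = 0.151). For STX7 a further well measured probe set, 212631_at, rose with erlotinib by 0.94 and 0.81, but its difference between the lines in erlotinib was -0.22 and was not called (limma over all probe sets, adjusted p = 0.102). The same was true of STX16, where 221499_s_at rose by 0.47 and 0.49 and differed between the lines by -0.10 in erlotinib (limma over all probe sets, adjusted p = 0.568). A further probe set of STX16, 1558249_s_at, was at -0.05 and 0.04 with erlotinib and was not called, at a level near 7.2. The second probe set of STX8, at a mean near 3, lay at the low end of the array's range.

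The falls of STX6 were seen on 3 further probe sets, by 0.72 to 1.08 in GFP vector cells, while a low one, 244041_at, read 0.36 higher (limma over all probe sets, adjusted p = 0.061). Between the lines that low probe set was called lower in pre-miR-371 cells in erlotinib, at -0.53 (adjusted p = 0.0373), where the main one of STX6 was at 0.04. STX3 had a low probe set, 235483_at, that was at 0.03 and 0.12 with erlotinib, not called, and differed between the lines by -0.51 in DMSO (limma over all probe sets, adjusted p = 0.0163) and by -0.42 in erlotinib (adjusted p = 0.017). Its values in DMSO were 5.66, 5.51 and 5.34 with the GFP vector and 4.85, 5.11 and 5.02 with pre-miR-371, and the arrays were apart. Another low probe set of STX3, 216985_s_at, fell with erlotinib by 0.94 and 0.64 (limma over all probe sets, adjusted p = 0.000131 and 0.00324). Between the lines it was at -0.53 in DMSO (adjusted p = 0.0675) and -0.23 in erlotinib (adjusted p = 0.357), neither called. Averaged over treatments it was called at -0.38 (adjusted p = 0.0275). A second probe set of STX4, 229395_at, went up by 0.53 with erlotinib in GFP vector cells (adjusted p = 0.00515) where the main one was not called. STX5, STX10 and STX18 had a single probe set each.

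Members that rose and members that fell were compared by letters in their promoters. The windows, from RefSeq in GRCh38.p14, ran from 250 bases before to 50 after each annotated start, 16 windows for the 10 genes and 35116 for all genes. Both strands were searched for 9 short motifs chosen after the expression values were known. Shares of all windows compare with counts out of the 16 member windows, since some genes have several. The cAMP response element TGACGTCA was present in STX12 alone (1 of 16 windows), and in 1.85% of all windows. Its shorter core TGACGT, which the full element contains, was in STX12, STX7, STX5 and STX4 (5 of 16), and in 7.98% of all windows. The E-box CACGTG was in STX6, STX18 and STX4 (4 of 16), in none of the 5 that rose, and in 7.26% of all windows. Its extended form GTCACGTG was in STX6 and STX4 (2 of 16), and in 2.4%. The AP-1 motif TGACTCA was in no member and in 4.95% of all windows. The FOXO motif GTAAACA was in STX7 alone (1 of 16) and in 3.42%. The ETS core CGGAAG was in STX4, STX6, STX10 and STX12 (6 of 16) and in 19.5%. The CCAAT box CCAAT was in STX5, STX6, STX7, STX12 and STX18 (6 of 16) and in 34.6%. The GC box GGGCGG was in every member except STX6 (11 of 16) and in 45.0%. The stretches around the full element in STX12 and the extended E-box in STX6 are shown as the rarest matches among the members that rose and among those that fell, with the motif in capitals and each on the strand of its gene, chr1:27773014-27773043 (plus) and chr1:181022999-181023028 (minus).
STX12: ccccaactaggTGACGTCAtctccccgccc
STX6: tatatgccctgGTCACGTGagcggggtgcg
A match of letters is a description and says nothing of a factor at the site.

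Of 6 further syntaxins, 5 were measured. STX19, an epithelial syntaxin without a membrane anchor of its own, rose by more than any of the 10, from 3.91 ± 0.15 to 6.14 ± 0.06 in GFP vector cells and from 3.94 ± 0.05 to 6.02 ± 0.03 in pre-miR-371 cells (SD, n = 3 arrays each). These were changes of 2.23 and 2.08 (limma, adjusted p = 1.67e-10 and 4.32e-10) as measured. The starting level lay below the array medians of 4.31 to 4.38 in DMSO and the values carry no detection call, so these changes may understate the rise. Between the lines in erlotinib STX19 was at -0.12 and was not called (limma, adjusted p = 0.283). STX1A, a syntaxin of regulated exocytosis, fell by 1.16 and 1.12 (limma, adjusted p = 1.16e-07 and 2.16e-07). STX2, of the plasma membrane, fell with erlotinib in GFP vector cells by 0.56 (limma, adjusted p = 0.00138) and differed between the lines in DMSO by -0.52 (limma, adjusted p = 0.0288). In pre-miR-371 cells its erlotinib change was -0.13 (limma, adjusted p = 0.435). STX17, the syntaxin of autophagosomes, read 0.22 higher in pre-miR-371 cells averaged over treatments (limma, adjusted p = 0.044), opposite to STX12. STX11, an immune cell syntaxin, was near the low end of the range at a mean of 3.43, where it was called lower between the lines in erlotinib at -0.38 (limma, adjusted p = 0.0463) and lower with erlotinib in pre-miR-371 cells at -0.31 (limma, adjusted p = 0.0447).

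The partners of the syntaxins moved in both directions too. Of 23 partner SNAREs, 11 rose and 6 fell in GFP vector cells and 13 rose and 6 fell in pre-miR-371 cells, against 26.5% of all genes higher and 23.4% lower, and 24.8% and 22.2%. Among genes with a mean of at least 6, to which the list was not matched, these shares were 38.4% and 39.9%, and 37.7% and 37%. The median changes were 0.15 and 0.20 beside 0.003 and -0.03 over all genes. SNAP23, the plasma membrane partner of STX3 and STX4, rose by 1.2 (SE 0.08; limma, adjusted p = 5.73e-08) in GFP vector cells, opposite to STX3. VAMP8, the vesicle SNARE that pairs with STX7 and STX8 in late endosomes, rose by 0.85 (limma, adjusted p = 1.39e-07). VAMP5 and BET1, the latter a partner of STX5, rose by 1.40 and 0.92. GOSR2, a Golgi SNARE and also a partner of STX5, fell by 1.05 in pre-miR-371 cells (limma, adjusted p = 3.73e-06), opposite to STX5. Between the lines in erlotinib 9.46% of all genes were lower and 6.5% higher, or 15.7% and 10.1% at a mean of at least 6. Of the 23 partners 3 were lower and none higher. They were USE1, a partner of STX18, at -0.34 (limma, adjusted p = 0.00429), VAMP4, a partner of STX6 and STX16, at -0.57 (limma, adjusted p = 0.00446) and VAMP5 at -0.45 (limma, adjusted p = 0.014). VAMP5 was also the single partner with a called difference of responses, at -0.66 (limma, adjusted p = 0.0457). Over all genes the shares in that comparison were 1.44% higher and 0.561% lower.

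Of 21 regulators of SNARE assembly, 14 rose and 3 fell in GFP vector cells, with a median of 0.35, against 26.5% of all genes higher and 23.4% lower. In pre-miR-371 cells 13 rose and 3 fell, with a median of 0.31, against 24.8% and 22.2%. At a mean of at least 6, to which the list was not matched, these shares were 38.4% and 39.9%, and 37.7% and 37%. NSF, the ATPase that takes spent SNARE bundles apart, rose by 0.83 (limma, adjusted p = 2.06e-07) and 0.65 in the lines, and VPS41, a subunit of the tether of late endosomes, by 0.88 and 0.75. TXLNG, a taxilin that binds syntaxins, and SCFD2, of the family of syntaxin-binding proteins, fell by 1.24 and 1.15 in GFP vector cells. Between the lines in erlotinib the shares were 9.46% lower and 6.5% higher over all genes, or 15.7% and 10.1% at a mean of at least 6. There 5 regulators were lower in pre-miR-371 cells and none higher. Among them were STXBP2, a chaperone of plasma membrane syntaxins, at -0.32 (limma, adjusted p = 0.00635), NAPA, the adaptor of NSF, at -0.38 (limma, adjusted p = 0.00721), VPS45, the partner of STX16, at -0.23 (limma, adjusted p = 0.0293) and VPS11 at -0.23 (limma, adjusted p = 0.0319). In DMSO SCFD2 alone was called, at -0.28 (limma, adjusted p = 0.0352), against 3.64% of all genes lower and 1.62% higher.

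Of 32 genes of endosomal recycling, the route of STX12, 8 rose and 12 fell in GFP vector cells and 11 rose and 9 fell in pre-miR-371 cells, with medians of -0.01 and -0.03, against the same shares of all genes. The erlotinib shares at a mean of at least 6, to which the list was not matched, were 38.4% and 39.9%, and 37.7% and 37%. Averaged over treatments 10 of the 32 genes were lower in pre-miR-371 cells and 2 higher. The shares were 13.1% lower and 8.03% higher over all genes, or 22.7% and 9.95% at a mean of at least 6. RABEP1, an effector of RAB5, fell by 1.10 in GFP vector cells, and EHD4 and EHD1, ATPases of recycling membranes, by 1.38 and 1.05, and RAB5B, a GTPase of early endosomes, rose by 1.41 (limma, adjusted p = 1.74e-08). Between the lines in DMSO the shares were 3.64% lower and 1.62% higher over all genes. There RABEP1 was lower in pre-miR-371 cells at -0.30 (limma, adjusted p = 0.0129) and EEA1, an early endosome tether, lower at -0.33 (limma, adjusted p = 0.019). BLOC1S6 was higher there at 0.33 (limma, adjusted p = 0.0471). In erlotinib 4 of these genes were lower in pre-miR-371 cells, led by the sorting nexin SNX1 at -0.44 (limma, adjusted p = 0.00313), and 3 were higher, namely SNX4, RAB11FIP2 and BLOC1S6 at 0.29, 0.29 and 0.39. The shares between the lines in erlotinib were 9.46% lower and 6.5% higher over all genes, or 15.7% and 10.1% at a mean of at least 6. EEA1 was the single gene of this list with a called difference of responses, at 0.43 (limma, adjusted p = 0.0423). Of all genes 1.44% were higher and 0.561% lower in that comparison.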

How the data were processed

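RNA of 12 samples of PC9 lines was hybridised to Affymetrix Hgu133plus2 arrays. The authors deposited log2 expression values per probe set. Quantile normalization is named in the methods, and RMA and affy in the submitters' processing notes, with versions not given in the sources used here, so background correction, scaling between arrays and summary over probes are already in the values. Arrays of cells treated for longer were not analysed here.

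Groups and replicate numbers came from the labels. Gene symbols came from the platform's annotation. Of 54675 probe sets, 41097 had 1 symbol, 1801 several and 11777 none listed, and the 62 control probe sets among these were left out. Differences came from limma 3.58.1 under R 4.3.3 (1 mean per group, all 12 arrays, empirical Bayes) and adjusted by the Benjamini-Hochberg method over 19775 genes, or over all probe sets with 1 symbol where single probe sets are given. The method was tested on simulated data. No 2 arrays held identical values (0 pairs).

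The members, the lists and the tests were chosen with earlier results of these data known. The genes named are every member with its probe sets, the other syntaxins, the 5 genes most like STX12 and up to 4 called genes per list and comparison with the smallest p, not all of which are printed. The lists of 22 regulators, 33 recycling genes and 6 further syntaxins each had 1 gene without a match. Alternatives were the mean of all probe sets, every probe set, genes with a mean of at least 6, the groups compared alone, the replicate number as a block, repeated quantile normalization, median centring, trend and robust variance, array weights, the methods' t-test, the methods' limit of a fold over 1.5, and each array left out in turn. Cyclic loess normalization was added after the data had been seen. Figures were drawn with matplotlib. The number of arrays limits the precision.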

Additional observations from a re-analysis of the deposited data

How the results depend on the processing

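Over 25 alternatives (22 where lines were averaged or responses compared), STX12 kept its direction in each comparison and kept its calls in all but the limit of a fold over 1.5, under which its differences of -0.32 in erlotinib and -0.24 averaged over treatments and its rise of 0.43 in the pre-miR-371 line were no longer counted. Under that limit the syntaxins counted with erlotinib were 3 higher and 2 lower for GFP vector cells and 1 higher and 1 lower for pre-miR-371 cells, against 14.1% and 11.7%, and 12.6% and 9.33%, of all genes, and between the lines 0 lower in erlotinib or averaged over treatments.

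Counts of syntaxins lower in the pre-miR-371 line depended most on the choices. In DMSO, where none was called, there was 1 with the mean of all probe sets (3.25% of all genes lower under that setting), 3 among genes with a mean of at least 6 (17%), 1 with trend and robust variance (7.68%), 3 with array weights (11.4%) and 4 by the methods' t-test without adjustment (12.3%). In erlotinib, where 4 were called, there were 2 with the mean of all probe sets (8.37% of all genes), 8 among genes with a mean of at least 6 (24.4%), 7 with trend and robust variance (12.6%), 7 by the methods' t-test without adjustment (16.1%) and 2 by it after Benjamini-Hochberg (4.18%). Leaving out single arrays gave 3 to 6, while the share of all genes lower ran from 4.76% to 10.9%. The causes of these shifts were not tested. Where the low genes were left out, fewer genes were adjusted over, and standard errors also fell, for STX12 from 0.062 to 0.055. With the mean of all probe sets, 4 of the other 9 members were called above STX12 in the averaged difference between the lines. For erlotinib 0 were above, in the GFP vector line, in the pre-miR-371 line and averaged. With the main probe sets there were 2 in the averaged difference, against 64.4% of all genes. There was 1 in each erlotinib comparison, against 9.48%, 11.2% and 11.3% of all genes. With single arrays left out, 1 to 3 members were above STX12 in the averaged difference and 0 to 1 for erlotinib in the pre-miR-371 line. The shares of all genes above STX12 were not counted under these alternatives.

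Of 1296 values of the other 9 members under the alternatives, 1195 kept direction and call and 14 changed sign. With the mean of all probe sets these were STX4 at 0.084 and STX8 at 0.022 between the lines in DMSO, STX6 at -0.13 in erlotinib, STX4 at 0.22 for erlotinib in the GFP vector line (limma, adjusted p = 0.039), and STX6 at -0.025 and STX16 at 0.027 for the difference of responses. The averaged difference of STX6 between the lines turned to 0.038 with repeated quantile normalization and 0.026 with cyclic loess, and cyclic loess put the erlotinib change of STX4 in the GFP vector line at 0.0062. The difference of responses of STX18 turned to 0.0042 with median centring and ran from -0.073 to 0.013 as single arrays were left out, and that of STX10 ran from -0.11 to 0.034. Repeated quantile normalization ended the averaged calls of STX10 and STX18, and the mean of all probe sets ended the calls between the lines of STX8 and STX16, whose lower probe sets enter it.

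Replicates that share a number across groups deviated from their group means with correlations of -0.06 to 0.20, with 7 of 18 above 0.1, so the numbers were not taken to pair the samples. With the replicate block STX12 differed between the lines in erlotinib at -0.32 (limma, adjusted p = 0.0107), and the averaged difference of STX4 passed at -0.11 (limma, adjusted p = 0.0426). No other call of a member changed with the block.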
